A study of Mus musculus with 29 samples.

Results

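The broad H3K9ac regions described here are stretches of the mouse genome over which acetylated lysine 9 of histone H3 was called as a single peak of at least 2 kb. They were found by taking peaks of 2000 bp or more in any of the 15 deposited H3K9ac peak lists, merging those that overlapped, and keeping merged regions in which 2 or more libraries held such a peak. The lists contained 866003 peaks, of which 17387 (2.01%) reached 2 kb. These merged into 3162 regions, 748 of which rested on 1 library and were set aside, leaving 2414 regions. Over the same lists, 85060 regions of any width were held by 2 or more libraries. Because peak length chose the members, their lengths are given as a description, and a test of length is given only where the regions were chosen from libraries other than those compared.

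The study compared mouse embryonic cortex at E16.5 after vehicle or after TSA (trichostatin A), an inhibitor of histone deacetylases. Nuclei were sorted by flow cytometry on Tbr2, the transcription factor encoded by Eomes that marks basal progenitors. The groups Tbr2-positive vehicle, Tbr2-positive TSA, Tbr2-negative vehicle and Tbr2-negative TSA had 3, 4, 4 and 4 H3K9ac libraries. The same groups had 3, 2, 3 and 2 RNA libraries, described as coming from the same sorted nuclei by the series text and from whole tissue by the extraction label. No strain, transgene or dose is given in the labels used here, and nothing says that replicates came from separate animals, so a p-value covers the spread between the libraries, which may be technical. A Tbr2-negative fraction holds whatever Tbr2 does not mark, so it mixes cell types, and in sorted bulk nuclei fewer cells of a type cannot be told apart from less RNA or acetylation per cell. The sort was visible in the RNA: Eomes stood at 409.9, 371 and 548 CPM (counts scaled to the library total) in the Tbr2-positive vehicle libraries, and at 22.0, 13.9 and 18.2 CPM in the Tbr2-negative ones. Under TSA it stood at 391 and 462 CPM in Tbr2-positive and at 14.2 and 8.24 CPM in Tbr2-negative libraries.

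Some libraries stood apart before any comparison. ChIP depth was 15.2 to 30.3 M tags, and MACS scaled the larger of ChIP and input toward the smaller. The input behind all Tbr2-positive TSA lists held 20.1 M tags, against 30.1 M for Tbr2-positive vehicle. Those 4 lists were thus called at a lower effective depth than Tbr2-positive vehicle, and they held 31823 to 40053 peaks against 61487 to 82164. The Tbr2-negative TSA lists had 15.2 to 23.1 M ChIP tags against an input of 26.0 M, and held 47835 to 78929 peaks. Whether depth set the number of peaks was not tested. Tbr2-negative TSA library 4 had the lowest ChIP depth. Tbr2-negative TSA library 2 held 78929 peaks but only 0.81% of 2 kb or more, where the other 14 libraries held 1.38% to 2.87%. RNA libraries held 18567111 to 26282652 counts.

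H3K9ac is deposited by histone acetyltransferases at active promoters and enhancers and is removed by histone deacetylases. Its peaks normally cover a narrow window around a transcription start, and unusually long domains of active promoter marks have been described at genes that define a cell's identity, such as its lineage transcription factors. In the developing cortex, radial glia divide to give basal progenitors, which express Eomes and divide in turn to give projection neurons. Interneurons arise in the ventral forebrain and migrate into the cortex.

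The 2 widest regions, and 4 of the 12 widest, held a microRNA hairpin, so the mature sequences encoded there are shown first, from RefSeq on GRCm38.p6, 5′ to 3′, with the seed (bases 2 to 8) in capitals. The 3 copies of the miR-9 gene, Mir9-1, Mir9-2 and Mir9-3, each lay in one of the 12 widest regions and encode identical products. miR-9 is a brain-enriched microRNA that acts on progenitors and neurons, miR-125b and let-7 are known from differentiating cells, and miR-137 from maturing neurons.
miR-9-5p: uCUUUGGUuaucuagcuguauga
miR-9-3p: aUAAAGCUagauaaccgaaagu
miR-125b-5p: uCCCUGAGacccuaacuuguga
let-7c-5p: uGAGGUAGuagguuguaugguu
let-7e-5p: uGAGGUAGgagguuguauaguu
miR-99a-5p: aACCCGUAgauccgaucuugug
miR-137-3p: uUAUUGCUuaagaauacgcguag
miR-9-5p and miR-9-3p come from the opposite arms of one hairpin and have different seeds. let-7c-5p and let-7e-5p share the seed GAGGUAG although their hairpins lie on chromosomes 16 and 17. In all, 36 of 963 hairpins in the table (3.74%) lay in 33 broad regions. Mir124a-1 and Mir124a-2, genes of the neuronal microRNA miR-124, also lay in broad regions.

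Promoter sequence is shown for 4 genes because their regions differ between the populations or in their CpG content. Each line gives the 250 bases upstream of a RefSeq gene start on the gene's own strand, with every CG dinucleotide in capitals. They are Mir9-3hg, the host gene of Mir9-3 (chr7:79499776-79500025, plus strand), Eomes (chr9:118477939-118478188, plus strand), Bcl11b, a transcription factor of deep-layer projection neurons (chr12:108003415-108003664, minus strand), and Neurod6, a bHLH factor of cortical neurons (chr6:55681264-55681513, minus strand).
Mir9-3hg: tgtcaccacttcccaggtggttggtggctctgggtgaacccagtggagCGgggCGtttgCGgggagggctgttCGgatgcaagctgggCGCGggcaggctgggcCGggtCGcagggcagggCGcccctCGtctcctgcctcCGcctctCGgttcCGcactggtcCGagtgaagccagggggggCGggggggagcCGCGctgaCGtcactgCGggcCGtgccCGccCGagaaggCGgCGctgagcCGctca
Eomes: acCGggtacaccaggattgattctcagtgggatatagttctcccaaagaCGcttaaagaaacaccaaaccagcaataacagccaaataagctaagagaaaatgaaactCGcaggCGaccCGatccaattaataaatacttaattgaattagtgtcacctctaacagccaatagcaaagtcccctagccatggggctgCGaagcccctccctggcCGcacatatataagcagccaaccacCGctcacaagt
Bcl11b: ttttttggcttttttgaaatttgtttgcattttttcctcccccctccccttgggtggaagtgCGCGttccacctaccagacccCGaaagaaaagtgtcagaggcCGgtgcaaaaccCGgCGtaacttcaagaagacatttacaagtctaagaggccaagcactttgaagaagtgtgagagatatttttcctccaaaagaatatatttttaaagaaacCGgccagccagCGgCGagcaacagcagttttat
Neurod6: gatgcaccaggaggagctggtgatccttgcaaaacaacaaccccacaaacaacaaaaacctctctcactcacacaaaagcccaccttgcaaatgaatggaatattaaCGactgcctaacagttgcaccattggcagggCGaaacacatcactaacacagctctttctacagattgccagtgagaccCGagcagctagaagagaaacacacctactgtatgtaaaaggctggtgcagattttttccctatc
These windows held 25, 8, 9 and 3 CG dinucleotides, in the order shown. Mir9-3hg thus starts in a CpG-dense promoter and Neurod6 in a CpG-poor one, although both starts lay in regions broader than 2 kb.

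Over all promoters in the table, CpG density followed peak class. The ratio of observed to expected CpG in the 300 bases around the start (250 before and 50 after) had a median of 0.791 at 2837 starts in broad regions, 0.695 at 15141 starts with a narrower peak and 0.183 at 14873 starts without a peak. A ratio of 0.6 or more was held by 77.1%, 60.2% and 3.1% of these starts. CpG-poor promoters were still found at broad regions, 651 of 2837 below 0.6. The motif TATAAA on the gene's strand, 50 to 11 bases upstream of the start, was found in 1.4%, 1.2% and 3.8% of the same classes, against 2.4% of all 32851 promoters. With broad regions of 3 kb or more the share was 2.52% of 634 starts, so its side of the value for all promoters turned with the threshold. These are shares of starts, several of which can belong to 1 gene.

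Broad regions spanned 2015 to 30891 bp with a median of 2714 bp. Most were only just broad: the median over the 15 libraries of the longest peak was below 2 kb in 1531 regions, at least 3 kb in 197 and at least 5 kb in 46. A peak of 2 kb or more was held by all 15 libraries at 132 regions, by 12 or more at 408 and by exactly 2 at 412. Nearly all regions carried some peak in each library, 2385 of 2414. Near the 2 kb limit there was no gap in the data, with 8 to 29 peaks per library of 2000 to 2009 bp and 7 to 36 of 1990 to 1999 bp. The 748 regions set aside had a median width of 1293 bp over the libraries and the 412 regions held by exactly 2 libraries one of 1442 bp.

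Of the broad regions, 74.7% lay at a RefSeq gene start, against 19.9% of regions of any width. A further 16.9% lay at an end of a gene whose strand the tables do not give, 6.8% in a gene body and 1.5% between genes. They touched 3086 genes, 2387 protein-coding and 513 long noncoding, where a start, or either end when no strand was given, lay in the region or within 1 kb. The 934 regions with 1 gene start inside reached a median of 785 bp upstream and 1950 bp downstream of it, and 837 of them (89.6%) reached further downstream than upstream. At 2 kb downstream of the start, 30.9% of 1910 starts in broad regions were covered in Tbr2-positive vehicle, 21.4% in Tbr2-positive TSA, 34.3% in Tbr2-negative vehicle and 35.1% in Tbr2-negative TSA. At 2 kb upstream the shares were 6.24%, 8.45% and 9.73% in Tbr2-positive TSA, Tbr2-positive vehicle and Tbr2-negative vehicle, with Tbr2-negative TSA just above the last.

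**Figure D1:**
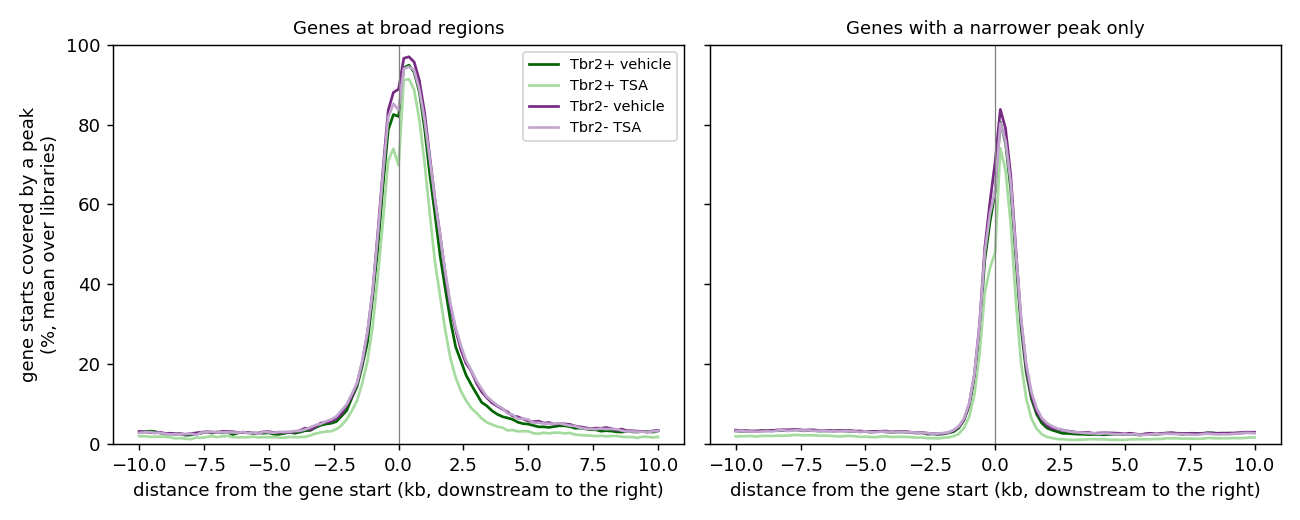
Share of gene starts covered by an H3K9ac peak (vertical axis, percent, mean over the libraries of a group) by distance from the start (horizontal axis, kb, downstream to the right), for 1910 starts in broad regions (left) and 10039 starts with only a narrower peak (right). The broad class extends mainly downstream, to 30.9% covered at 2 kb in Tbr2-positive vehicle against 4.06% for the narrower class.

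The widest region of all surrounded Mir9-2 and its host transcript C130071C03Rik (chr13:83712787-83743677). Its longest peak measured 29834, 18109 and 29966 bp in Tbr2-positive vehicle, 14114, 14144, 15885 and 15897 bp in Tbr2-positive TSA, 30234, 18357, 17804 and 30096 bp in Tbr2-negative vehicle, and 29430, 6640, 30022 and 18329 bp in Tbr2-negative TSA. The values fall near 30 kb, near 18 kb or lower within 1 group, depending on whether the caller split the domain. The summed length of all peaks inside the region was 29317 to 30769 bp in every library, so the length covered hardly moved where the longest peak did.

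The Mir9-3 region (chr7:79496189-79520355), with its host gene Mir9-3hg, had longest peaks of 14450, 21471 and 23294 bp in Tbr2-positive vehicle and 13803, 8740, 13578 and 12552 bp in Tbr2-positive TSA. Tbr2-negative vehicle libraries held 14290, 14891, 14996 and 14411 bp and Tbr2-negative TSA libraries 12276, 5527, 14040 and 9857 bp. Every TSA library was below every vehicle library of its own population there. The third miR-9 locus, Mir9-1 (chr3:88197960-88222330), measured 8379, 16060 and 16158 bp in Tbr2-positive vehicle and 7878, 6525, 7837 and 7925 bp in Tbr2-positive TSA, without overlap. In Tbr2-negative libraries it measured 10417, 14424, 15227 and 22767 bp under vehicle and 15117, 4153, 14390 and 11635 bp under TSA, which overlap.

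The other regions named from the 12 widest lay at transcription factor genes of the forebrain or at loci tied to them, with Mir125b-1 the only other microRNA among them (chr9:41577823-41590566, median 11565 bp). Pou3f3, a POU-domain factor of upper-layer neurons, shared a region with the noncoding gene Pantr1 (chr1:42678464-42695526, median 12552 bp), next to a region at Pantr2 (chr1:42697093-42714611, median 10426 bp). Nfib, a nuclear factor I gene of cortical neurons and glia, had a median of 11409 bp (chr4:82492277-82518268). Mn1, a transcriptional coregulator, had one of 10820 bp (chr5:111414703-111433698). A pair of regions lay inside Tcf4, a bHLH factor that pairs with proneural factors, with medians of 10526 and 9702 bp.

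**Figure D2:**
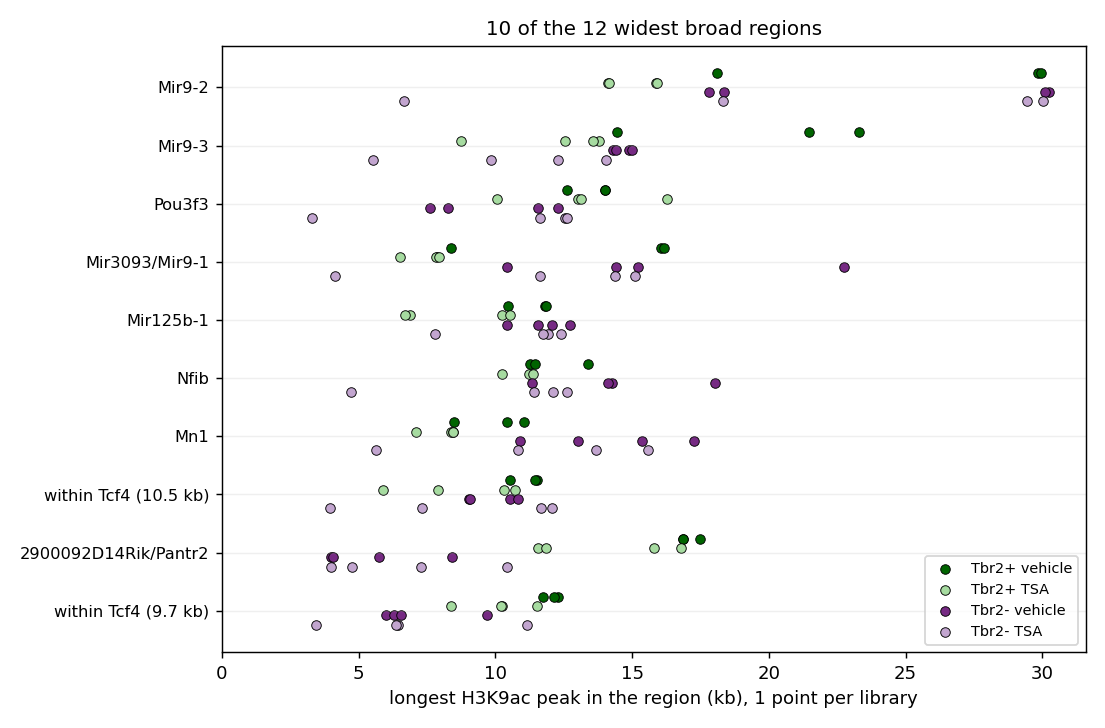
Longest H3K9ac peak (horizontal axis, kb) in each of the 15 libraries (points, coloured by group) at 10 of the 12 regions with the largest median width, widest at the top. Mir9-2 values reach 30234 bp, and the Tbr2-negative TSA point farthest to the left at most regions is library 2.

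Peak length differed between groups of libraries over the whole set. Broad peaks were found at 1058, 1051 and 1256 of the 2414 regions in Tbr2-positive vehicle, at 626, 520, 553 and 528 in Tbr2-positive TSA, at 1395, 1455, 1578 and 1510 in Tbr2-negative vehicle, and at 1594, 556, 1483 and 902 in Tbr2-negative TSA. The Tbr2-positive TSA libraries were the lowest, with library 2 of Tbr2-negative TSA among them, and the other groups did not overlap with one another except through Tbr2-negative TSA. The median over regions of the longest peak was 1939 ± 77.4 bp in Tbr2-positive vehicle (SD, n = 3), 1510 ± 68.0 bp in Tbr2-positive TSA (n = 4), 2132 ± 38.2 bp in Tbr2-negative vehicle (n = 4) and 1888 ± 354 bp in Tbr2-negative TSA (n = 4). The length covered by peaks was 2209.8 ± 19.7, 1942 ± 34.0, 2359 ± 49.6 and 2309 ± 120.0 bp in the same order. Library 2 of Tbr2-negative TSA had a longest peak of 1420 bp but covered 2237.5 bp, so its broad domains were present in pieces.

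**Figure D3:**
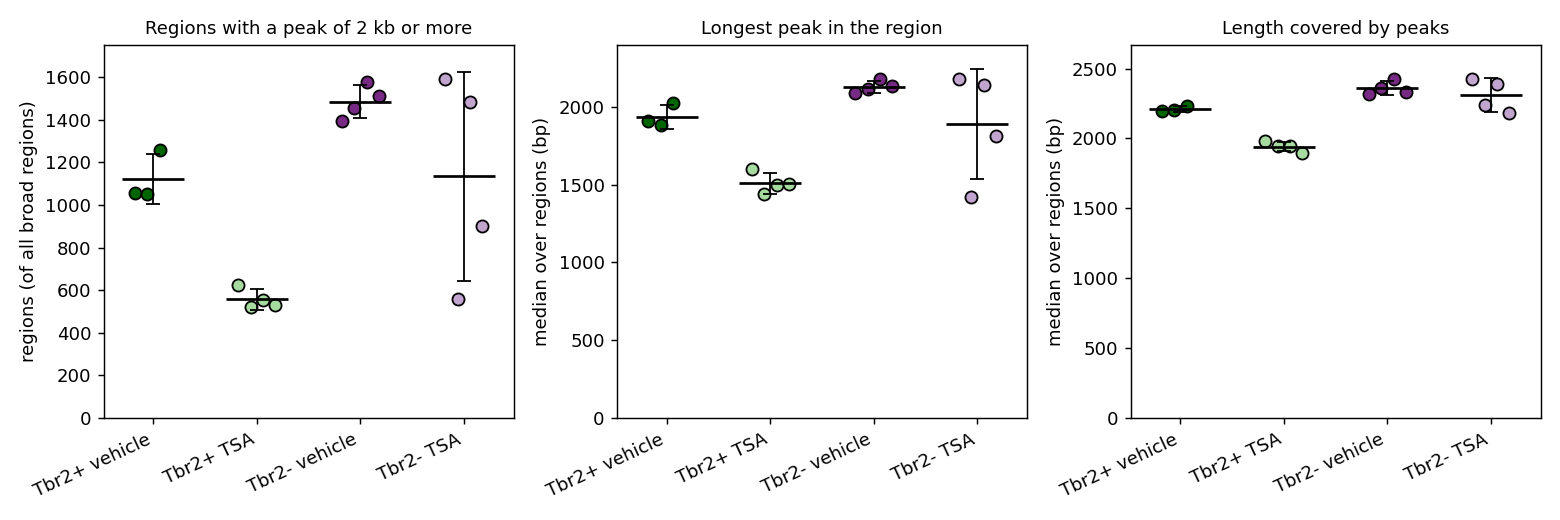
Number of regions with a peak of 2 kb or more (left), median longest peak (middle, bp) and median length covered by peaks (right, bp) over the 2414 broad regions, 1 point per library, with the group mean (line) and SD (bar). Tbr2-positive TSA libraries are lowest in the length covered, at 1897 to 1979 bp.

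Length was tested on regions chosen without the libraries compared. Among 2143 regions chosen from the Tbr2-negative libraries alone, the median longest peak was 1515 ± 64.9 bp in Tbr2-positive TSA (n = 4) and 1908 ± 81.6 bp in Tbr2-positive vehicle (n = 3), a difference of -393 bp, with no overlap (exact two-sided permutation test p = 0.0571, the smallest that 3 against 4 libraries allow, and 0.114 adjusted over the 4 comparisons). Among 1589 regions chosen from the TSA libraries, Tbr2-positive vehicle stood at 2086 ± 51.6 bp and Tbr2-negative vehicle at 2312 ± 53.2 bp, a difference of -226 bp without overlap (exact permutation p = 0.0571, adjusted 0.114). Among 2062 regions chosen from the vehicle libraries, Tbr2-positive TSA stood at 1588 ± 69.0 bp and Tbr2-negative TSA at 1932 ± 359.8 bp, a difference of -345 bp (exact permutation p = 0.143, adjusted 0.19). Among 1259 regions chosen from the Tbr2-positive libraries, Tbr2-negative TSA stood at 2041 ± 382 bp against 2328 ± 42.6 bp in Tbr2-negative vehicle, a difference of -287 bp (exact permutation p = 0.229, adjusted 0.229). None of the 4 passed 0.05 after adjustment. Without library 2 the Tbr2-negative TSA difference was -113 bp and the one between the populations under TSA -506 bp. With the length covered by peaks in place of the longest peak, the 4 differences were -247.5, -163.9, -325.6 and -59.2 bp in the order above. The difference for TSA in Tbr2-negative libraries was thus much smaller by that measure. None passed 0.05 there either (exact permutation, adjusted p 0.0762 to 0.343). The sets used between the populations were chosen by libraries of both, which held unequal numbers of broad regions. Tbr2-negative TSA libraries held 556 to 1594 each and Tbr2-positive TSA libraries 520 to 626. In vehicle the numbers were 1395 to 1578 and 1051 to 1256. Those sets thus lean toward regions broad in Tbr2-negative nuclei, and a wider Tbr2-negative side may be partly built in. The sets for TSA were likewise chosen from vehicle and TSA libraries together. The input depth of each group differed as given above and cannot be told apart from the group.

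Single regions were compared by whether the libraries of 2 groups overlapped in length. Tbr2-positive vehicle was wider than Tbr2-negative vehicle at 203 regions (8.4%) and narrower at 606 (25.1%). Of the 85060 regions of any width, 3.78% and 6.26% behaved in these ways. After each library's lengths were divided by its own median over the broad regions, the split was 390 wider and 400 narrower. The division makes that median equal in every library, so a nearly even split is largely built in and is not a result. Under TSA the Tbr2-positive libraries were wider at 57 regions and narrower at 534 (background 0.36% and 8.17%), or 289 and 291 after that division. Without Tbr2-negative TSA library 2 the narrower count was 984, and without library 1 or library 3 the wider count was 96.

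The region at Eomes (chr9:118476030-118482207) measured 5826, 5907 and 3684 bp in Tbr2-positive vehicle and 515, 947, 778 and 443 bp in Tbr2-negative vehicle. It measured 3389, 3277, 3405 and 2611 bp in Tbr2-positive TSA and 247, 273, 511 and 422 bp in Tbr2-negative TSA. It was thus broad only on the side of the sort that selects its own product. The regions most extended in Tbr2-positive vehicle lay at Pantr2, at Nfix, at a site near the noncoding gene Lncppara that held no gene, and inside Tcf4. At Nfix, another nuclear factor I gene (chr8:84774904-84788662), lengths were 13499, 10558 and 10687 bp in Tbr2-positive vehicle against 4458, 5099, 4239 and 6054 bp in Tbr2-negative vehicle. At Pantr2 they were 16860, 16845 and 17494 bp against 8429, 5726, 4000 and 4051 bp. All 4 regions kept their direction without overlap after division by the library's median.

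Patterning factors of the cortical progenitor zone were on the same side. Lhx2, a LIM-homeodomain selector of cortical identity (chr2:38344811-38360530), measured 8745, 9214 and 9374 bp in Tbr2-positive vehicle and 4251, 6079, 3909 and 3620 bp in Tbr2-negative vehicle. Emx2, a homeobox factor of area patterning (chr19:59457474-59468343), measured 6668, 7599 and 10608 bp against 3708, 3103, 3580 and 3529 bp. Pax6, the paired-box factor of radial glia (chr2:105668122-105684802), measured 5353, 5310 and 6819 bp against 2156, 3209, 3383 and 2575 bp. Of 13 forebrain patterning factors at broad regions, 6 (Emx1, Emx2, Pax6, Lhx2, Otx1 and Dmrta2) were at regions wider in each Tbr2-positive vehicle library, and 0 at regions wider in each Tbr2-negative one. Of 12 basal progenitor genes, 6 were at wider regions (Eomes, Neurog2, Btg2, Insm1, Mfng and Sstr2) and 1 at a narrower one (Sox11). Of 15 radial glia genes, 6 were at wider regions (Pax6, Fabp7, Emx2, Lhx2, Gli3 and Sall1) and 1 at a narrower one (Ptprz1). Of all broad regions, 8.4% were wider and 25.1% narrower in Tbr2-positive vehicle.

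The regions with the largest differences in the other direction included several at genes of neurons. Islr2, a membrane protein of growing axons (chr9:58195663-58205322), measured 598, 978 and 776 bp in Tbr2-positive vehicle and 9454, 6062, 9583 and 7373 bp in Tbr2-negative vehicle. The region of Mir124a-1 and its host gene Mir124a-1hg (chr14:64585124-64596373) measured 2793, 2863 and 2814 bp against 8899, 9991, 11052 and 9958 bp. Mir124-2hg (chr3:17788648-17797401) measured 2274, 1984 and 2215 bp against 8552, 8290, 8478 and 8427 bp. Myt1l, a zinc finger factor that represses non-neuronal genes (chr12:29525655-29539498), measured 1987, 2714 and 2994 bp against 11284, 5668, 9138 and 9840 bp. Arpp21, a phosphoprotein of neurons (chr9:112229912-112236469), measured 1729, 1799 and 1361 bp against 6308, 6492, 5699 and 6498 bp. Bcl11b (chr12:107995499-108004543) measured 1398, 1491 and 2680 bp against 5402, 5180, 5493 and 5349 bp. All 6 regions kept non-overlapping vehicle groups after division by the library's median.

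Of 17 pan-neuronal genes at broad regions, 11 were at regions narrower in each Tbr2-positive vehicle library (among them Stmn2, Gap43, Snap25 and Tubb2b) and 0 at wider ones. Of 11 interneuron and ventral forebrain genes, 8 (Dlx1, Dlx2, Dlx5, Dlx6, Gad1, Gad2, Lhx6 and Slc32a1) were at narrower regions and 0 at wider ones. Of 21 projection neuron factors, 6 were at narrower regions, Bcl11b, Bhlhe22, Neurod2, Tle4, Id2 and Bcl11a, and 4 at wider ones, Pou3f2, Pou3f3, Lhx2 and Nfix. Of all broad regions, 25.1% were narrower and 8.4% wider in Tbr2-positive vehicle. The narrower share of the projection neuron factors lay near that of all broad regions. Regions at Tbr1, Neurod6 and Sox2 overlapped between the populations: Neurod6 (chr6:55675528-55683641) measured 6231, 6322 and 4909 bp in Tbr2-positive and 5111, 8087, 4761 and 6915 bp in Tbr2-negative vehicle.

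**Figure D4:**
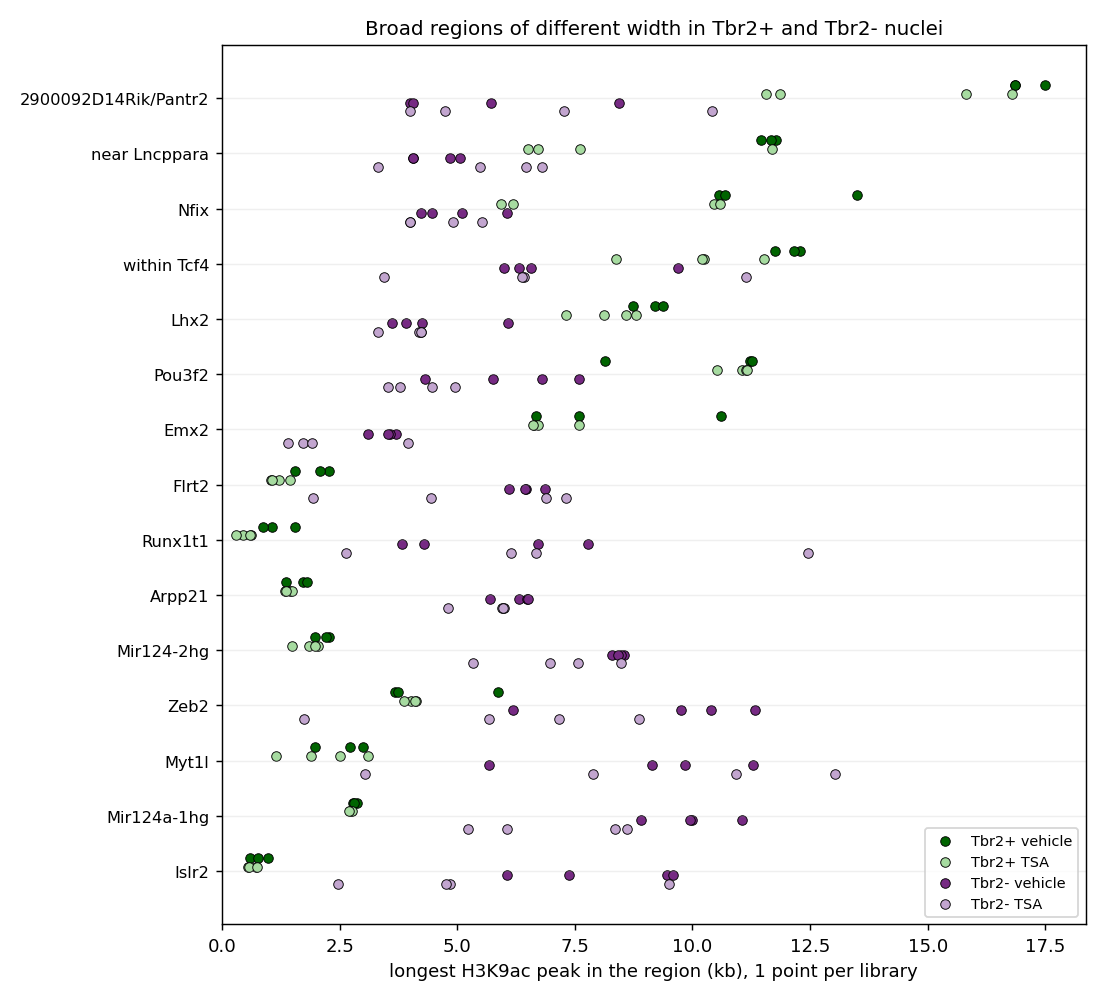
Longest H3K9ac peak (horizontal axis, kb) in each of the 15 libraries (points, coloured by group) at the regions with the largest differences between the populations, ordered by the difference under vehicle. Tbr2-positive vehicle points lie right of Tbr2-negative vehicle points from Emx2 upward and left of them from Flrt2 downward, for example 598 to 978 bp at Islr2 against 6062 to 9583 bp in Tbr2-negative vehicle.

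At the broad regions, TSA went with a shorter longest peak in Tbr2-positive libraries. Over all peaks of a list this was not so: the median length was 344 to 419 bp in Tbr2-positive TSA and 218 to 270 bp in Tbr2-positive vehicle. The share of peaks of 2 kb or more was 1.4% to 1.97% against 1.38% to 2.13%. Of the broad regions, 773 were narrower in each Tbr2-positive TSA than in each Tbr2-positive vehicle library and 3 were wider. Of regions of any width, 11.4% and 0.0717% behaved so. After division by each library's median the split was 129 narrower and 304 wider. Because the division centres every library on these regions, that split gives no direction for the set. The shortening over the set cannot be told apart from the lower depth of the input. The 4 regions whose longest peak shortened most included all 3 miR-9 loci and 3110006O06Rik, a noncoding locus (chr13:78172859-78186199). The region at 3110006O06Rik measured 5994, 2537 and 9202 bp in vehicle and 1757, 1510, 1599 and 1425 bp in TSA libraries. It kept non-overlapping groups after division, while the miR-9 loci overlapped. At Mir9-2 the length covered by peaks hardly moved, as given above, so only the longest peak was shorter there. The 3 wider regions lay at Dgki, a diacylglycerol kinase, at Cpe, a peptide-processing enzyme, and at Glcci1, where the length covered by peaks went the other way, by -208.5 bp. Leaving out each library in turn gave 5 to 14 wider regions. Dgki (chr6:37298659-37301121) went from 908, 986 and 1608 bp to 1615, 1747, 1690 and 1712 bp.

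In Tbr2-negative libraries, 140 regions were narrower in each TSA library and 5 wider (background 1.46% and 0.424%), or 63 and 62 after division by the library's median. The counts rested on single libraries: without Tbr2-negative TSA library 1 or 3 the narrower count was 314 or 274, without vehicle library 1 it was 215, and the wider count was 48, 30 or 21 without TSA library 2, TSA library 4 or vehicle library 3 and 7 to 13 without each of the others. Mir124a-1hg narrowed to 5229, 6054, 8610 and 8350 bp under TSA from the vehicle values above. Zbtb18, a zinc finger transcriptional repressor of cortical neurons (chr1:177442886-177455322), measured 11376, 11612, 11408 and 11344 bp under vehicle and 6544, 6631, 9727 and 6224 bp under TSA. Efnb2, the ephrin-B2 ligand (chr8:8653331-8662015), measured 8645, 8562, 8633 and 7967 bp against 7148, 1374, 4857 and 6849 bp. Wider regions included Arf4, a vesicle traffic GTPase (chr14:26638108-26640425), at 1885, 2157, 1925 and 1928 bp against 2163, 2315, 2276 and 2159 bp. No region was narrower without overlap in one population and wider in the other.

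Gene groups were unevenly represented. Of all 21883 located protein-coding genes, 10.9% had a broad region. Among the gene lists the shares were 21 of 27 cortical projection neuron factors (77.8%), 17 of 24 pan-neuronal genes (70.8%), 12 of 19 basal progenitor genes (63.2%), 15 of 24 radial glia genes (62.5%), 13 of 23 forebrain patterning factors (56.5%) and 11 of 20 interneuron genes (55.0%). Lists of cell types outside the neural lineage had 0, with 12 microglial, 16 vascular and meningeal and 8 erythroid genes located, and so had 6 oligodendrocyte precursor genes. Of 20 S phase genes 2 (Fen1 and Mcm7) were at broad regions and of 20 G2/M genes 1 (Aurka), shares near that of all protein-coding genes or below it. Shares for regulators were 9 of 17 immediate-early genes, 13 of 28 RNA processing genes, 9 of 20 polycomb and trithorax genes, 8 of 21 Notch genes, 4 of 11 deacetylases, 4 of 16 acetyltransferases and bromodomain readers, 11 of 48 ribosomal protein genes and 1 of 10 Cajal-Retzius genes. Of 10 genes often induced by deacetylase inhibitors 5 were at broad regions. The lists were not tested for enrichment.

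Genes at broad regions were mostly transcribed. Of 2726 with a row of counts, 2594 (95.2%) passed the filter on low counts, against 9483 of 10827 genes (87.6%) with only a narrower peak at the start and 1220 of 7024 (17.4%) without one. In vehicle libraries, 456 of the 2594 were higher and 531 lower in Tbr2-positive than in Tbr2-negative nuclei (edgeR's quasi-likelihood test, adjusted p under 0.05), where 9.96% and 11.5% of all 20078 genes were called. That is 17.6% and 20.5% of the genes at broad regions, with a median log2 fold change of 0.005 beside -0.05 over all genes.

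The side on which a region was wider went with the RNA of its genes, a measure that did not choose the regions. Of 189 tested genes at regions wider in Tbr2-positive vehicle, 108 were higher in Tbr2-positive vehicle RNA and 1 was lower, and the median log2 fold change was 1.04. Of 590 at regions narrower there, 21 were higher and 306 lower, with a median of -0.74. With the lengths divided by the library's median the counts were 174 higher and 10 lower of 397, and 11 higher and 228 lower of 372. Under TSA, 34 of 60 genes at regions wider in Tbr2-positive TSA were higher and 0 lower (0 also at an unadjusted p under 0.05), and of 533 at narrower regions 11 were higher and 155 lower. Without Tbr2-negative TSA library 1 or 2 the count of 34 was 21 in both cases, the count of 11 was 3 in both, and the count of 155 was 72 or 88. Without Tbr2-positive TSA library 1 the count of 155 was 97, and without library 2 the count of 11 was 6. Over 1870 protein-coding genes with a start in a broad region, the log2 ratio of lengths and the log2 fold change of RNA had a Pearson r of 0.59 in vehicle and 0.57 in TSA. These are correlations across genes, which share libraries and are not independent replicates. For TSA against vehicle the same r was 0.00 among Tbr2-positive and -0.05 among Tbr2-negative libraries.

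**Figure D5:**
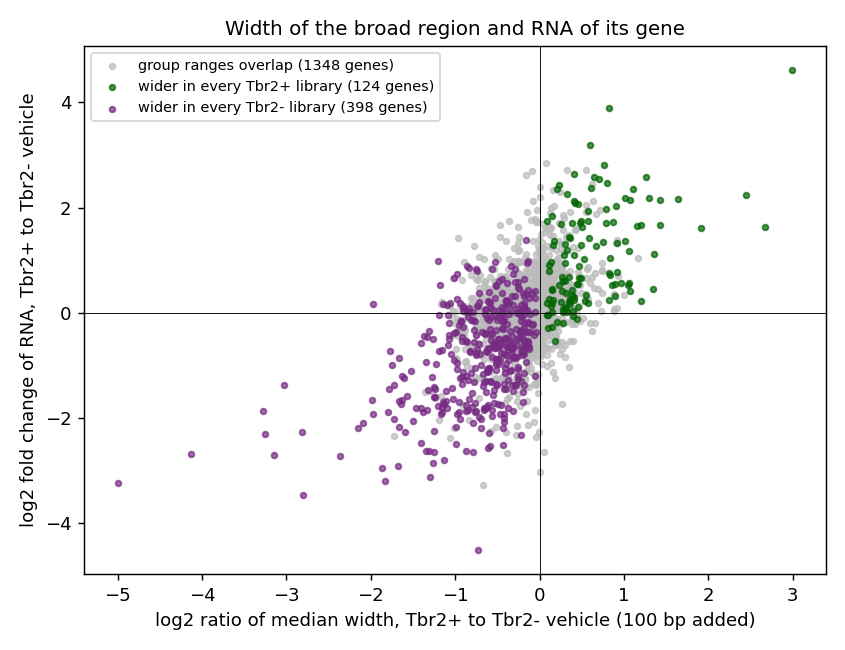
Log2 ratio of the group medians of the longest peak, Tbr2-positive to Tbr2-negative vehicle, with 100 bp added (horizontal axis) against the log2 fold change of RNA in the same contrast (vertical axis), 1 point per protein-coding gene, n = 1870. Of 124 genes at regions wider in each Tbr2-positive library 115 lie above 0, and of 398 at narrower regions 86 do.

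Progenitor genes led the RNA that was higher in Tbr2-positive nuclei. Eomes was higher by 4.62 ± 0.26 on the log2 scale in vehicle (SE; edgeR adjusted p = 1.05e-06, n = 3 and 3). Neurog2, the proneural bHLH factor, stood at 371, 336 and 421 CPM against 31.4, 16.9 and 27.6 CPM, higher by 3.89 ± 0.25 (edgeR adjusted p = 1.83e-06). Abcd2, a peroxisomal fatty acid transporter, stood at 203, 175 and 193 CPM against 22.5, 20.02 and 17.1 CPM, higher by 3.26 ± 0.16. Sstr2, a somatostatin receptor, stood at 669, 508 and 718.5 CPM against 94.0, 50.7 and 62.9 CPM. Eya1, a transcriptional coactivator and phosphatase, and Nrn1, neuritin, were higher by 2.89 ± 0.41 and 2.87 ± 0.20. Of the 12 basal progenitor genes at broad regions 11 were higher and 0 lower, and of 13 patterning factors 8 were higher and 2 lower. Of all tested genes at broad regions, 17.6% were higher and 20.5% lower. Among the higher genes, Insm1, Nr2f1 and Meis2 did not pass when certain single libraries were left out (edgeR adjusted p 0.0501 to 0.127). Of 15 radial glia genes at broad regions 8 were higher and 2, Id4 and Ptprz1, lower. Between the TSA libraries 6 radial glia genes were higher and 3 lower, namely Id4, Ptprz1 and Sox2. Sox2 did not pass there in a fit of only the groups compared (edgeR adjusted p = 0.0757). Lhx2 stood at 159.8, 154 and 234 CPM against 63.1, 52.9 and 58.3 CPM, and Pax6 at 155.5, 150.1 and 189 CPM against 70.7, 36.4 and 42.9 CPM. Neither pair of groups overlapped.

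Interneuron and neuronal genes led the RNA that was lower. Htr1b, a serotonin receptor, was low everywhere, at 0.295, 0.0412 and 0.132 CPM in Tbr2-positive and 1.94, 5.17 and 3.94 CPM in Tbr2-negative vehicle libraries. Grik3, a kainate receptor subunit, stood at 7.33, 16.1 and 2.86 CPM against 101.0, 82.5 and 105.7 CPM, lower by 3.46 on the log2 scale (log2 fold change -3.46 ± 0.44, edgeR adjusted p = 0.000147). Arpp21 stood at 44.3, 67.4 and 32.5 CPM against 358, 509 and 454 CPM. Dlx6, an interneuron homeobox factor, Slc32a1, the vesicular GABA transporter, and Ttc7 followed, with log2 fold changes of -3.28 ± 0.46, -3.24 ± 0.50 and -3.28 ± 0.67. Of 11 interneuron genes at broad regions 8 were lower and 1, Prox1, higher. Summed over the 4 interneuron markers Gad1, Gad2, Dlx1 and Dlx2, RNA was 52.0 to 124 CPM in Tbr2-positive and 359 to 418 CPM in Tbr2-negative vehicle libraries, with none of the 4 missing. The part of interneuron number in these results was not tested. Of 17 pan-neuronal genes 12 were lower and 1, Elavl4, higher.

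MicroRNA host genes were measured as long transcripts. Mir9-3hg stood at 133, 116 and 153 CPM in Tbr2-positive and 85.7, 49.8 and 50.1 CPM in Tbr2-negative vehicle (log2 fold change 1.11 ± 0.21, edgeR adjusted p = 0.0023), while C130071C03Rik, at Mir9-2, did not pass (0.08 ± 0.13, edgeR adjusted p = 0.719). The 2 miR-124 host genes were lower in Tbr2-positive vehicle, Mir124-2hg at 149.5, 176 and 141 CPM against 404, 439 and 431 CPM, and Mir124a-1hg at 107.7, 96.4 and 89.6 CPM against 235, 195 and 230.3 CPM. RNA of Tbr1, Neurod6 and Sox2 did not pass in vehicle, with log2 fold changes of 0.03, 0.02 and 0.08. Counts came from a kit that does not keep strand, so overlapping and antisense genes such as Pantr1 and Pou3f3 are less certain.

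Fewer genes were called between the TSA libraries. At broad regions 224 genes were higher and 293 lower in Tbr2-positive than in Tbr2-negative TSA nuclei (background 4.19% and 5.13%). Without Tbr2-negative TSA library 1 the counts were 107 and 119, without library 2 they were 139 and 153, and without Tbr2-positive TSA library 1 or 2 the lower count was 163 or 184. Eomes led the higher genes again at 5.25 ± 0.32 on the log2 scale, with Neurog2, Sstr2, the noncoding A930024E05Rik and the cell cycle kinase Cdk6 behind it. Gm17057, an unnamed gene model, came last of the 6 and did not pass without Tbr2-positive TSA library 1 or without either Tbr2-negative TSA library (edgeR adjusted p 0.0773 to 0.147). Dlx6, Slc32a1, Dlx2, Dlx5, Dlx6os1 and Gad1 had the largest falls, from -3.32 at Dlx6 to -2.70 at Gad1. The summed interneuron markers stood at 581 to 644 CPM in Tbr2-negative TSA and 96.0 to 103 CPM in Tbr2-positive TSA libraries.

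Few of these genes were called between TSA and vehicle. In Tbr2-positive nuclei 0 of 2594 were called in either direction by edgeR (background 0.0% each way), with 319 higher and 227 lower at an unadjusted p under 0.05, and DESeq2 called 122 higher and 71 lower. Without Tbr2-positive TSA library 2 edgeR called 6 and 7. Of 815 tested genes at regions narrower under TSA there, 0 were called and the median log2 fold change was 0.04 beside -0.04 over all genes. The smallest p-values, none of which passed, were at Vldlr, a reelin receptor (32.7, 36.8 and 30.8 CPM in vehicle, 70.7 and 56.5 CPM in TSA, edgeR adjusted p = 0.0948), at Rpl12, Tmsb10 and Bhlhe22 among rises, and at Masp1, Dcc, Sema4c and Slc43a2 among falls. Dcc, the netrin receptor, stood at 624, 373 and 446 CPM in vehicle and 131.5 and 217 CPM in TSA libraries.

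In Tbr2-negative nuclei 27 genes at broad regions rose and 11 fell under TSA (edgeR, background 0.817% and 0.359%), where DESeq2 called 203 and 142. All of the genes named next had an edgeR adjusted p of 0.0481 to 0.0486. Without vehicle library 1 or 3, or without either TSA library, 0 were called in both directions, and without vehicle library 2 the counts were 86 and 35, so the calls rest on single libraries. Tmsb10, an actin-binding thymosin, stood at 168, 264.5 and 225 CPM in vehicle and 706 and 559.8 CPM in TSA libraries (log2 fold change 1.53 ± 0.23). Dlx5 stood at 28.5, 41.9 and 32.1 CPM against 100.4 and 91.5 CPM, and Sox2, the progenitor factor, at 31.0, 23.5 and 26.4 CPM against 57.6 and 55.3 CPM. Tmsb4x, Rpl32, Atp5md and Pdap1 also rose, by 1.33, 1.29, 1.21 and 1.21. Tmsb10, Tmsb4x and the ribosomal protein genes have near-identical copies elsewhere, so their counts are less certain. Gm3764, a noncoding gene in the Mir9-1 region, fell from 723, 458 and 588 CPM to 186 and 269 CPM. Srebf1, a regulator of lipid synthesis, fell from 80.8, 68.1 and 132 CPM to 35.3 and 37.7 CPM, and 4933439C10Rik, Nin, Ptprk and Slc20a1 fell by 1.29, 1.20, 0.96 and 0.93 on the log2 scale. Of 148 tested genes at regions narrower under TSA there, 0 rose and 1 fell. The test of a TSA effect that differs between the populations called 0 of the 2594 genes (background 0.0%), with 87 and 74 at an unadjusted p under 0.05.

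Among genes often induced by such inhibitors, Cdkn1a, a cell cycle inhibitor, stood at 14.7, 15.4 and 13.4 CPM in Tbr2-positive vehicle and 28.3 and 20.6 CPM in TSA libraries, and at 15.97, 23.9 and 14.5 CPM against 37.6 and 31.6 CPM in Tbr2-negative ones. Its groups did not overlap in either population, and neither difference passed (edgeR adjusted p = 0.183 and 0.0717). H1f0, the linker histone H1.0, stood at 343, 363 and 409.8 CPM against 291 and 361 CPM in Tbr2-positive and at 106, 115 and 113 CPM against 152 and 165 CPM in Tbr2-negative nuclei, and did not pass either (edgeR adjusted p = 0.588 and 0.0877). Its region measured 4495, 4455 and 4336 bp in Tbr2-positive vehicle and 2197, 1187, 3920 and 3671 bp in Tbr2-positive TSA. Hdac2, one of the deacetylases, had a region of 1986, 1931 and 1942 bp in Tbr2-positive vehicle and 1768, 1095, 1794 and 1533 bp in TSA libraries, and its RNA did not pass under TSA in either population (log2 fold changes 0.22 and 0.45).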

How the data were processed

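H3K9ac ChIP-seq peak lists from 15 libraries and RNA-seq counts from 10 were used, and the 4 input libraries were not analysed here. Per the file headers, the authors called peaks in each library with MACS 2.1.0.20140616 at a q-value threshold of 0.1, without duplicates, against 1 input per group. Positions and, in an alternative, the deposited −log10 q were used, while the pileup and fold enrichment that MACS wrote for each summit, per the file headers, were not. RNA came as deposited whole-number counts for each Ensembl gene. The submitters' processing notes name mm10 and SAMtools. How reads were aligned and counted is not given in the sources used.

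Regions follow the rule given at the opening, and genes were located with RefSeq tables on GRCm38.p6, which has mm10 coordinates. The width of a region in a library is its longest peak. Counts were fitted with edgeR 4.0.16 (R 4.3.3, TMM, filterByExpr, robust quasi-likelihood test) over the 10 libraries, with Benjamini-Hochberg adjustment over 20078 genes, and checked with DESeq2 1.42.0. The fit was tested on simulated data. Held-out widths were compared by exact permutation over libraries.

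Named regions are the 12 widest and, per comparison, the 4 with the largest differences in each direction among regions whose groups do not overlap. Named genes are up to 4 per list, the 6 with the largest changes per contrast that passed with at least 2 CPM and groups that do not overlap (or, where none passed, the 4 smallest p-values per direction), and a few cell type genes. Further list members and the host genes at named regions were named after their values were seen. Members and lists were chosen with earlier results of these data known. Some genes and regions that these rules pick are not reported here.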

Additional observations from a re-analysis of the deposited data

Results flagged for a closer look

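Of 48 sets of values from 4 libraries of a group, 8 held a library far from the other 3, where chance gives about 5% of such sets. In Tbr2-negative TSA, library 2 was lowest at Pou3f3 (3278 bp), at Nfib (4732 bp) and at Mir125b-1 (7791 bp). In Tbr2-positive TSA, library 2 was lowest at Mir9-1 (6525 bp) and Nfib (10258 bp) and had the lowest median peak length (344 bp), and library 3 was lowest at Mn1 (7091 bp). In Tbr2-negative vehicle, library 3 was highest inside Tcf4 (9702 bp).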

How the results depend on the processing

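A threshold of 3 kb left 549 regions and 686 genes, 1.5 kb gave 5678 and 6969, and joining peaks up to 500 bp apart gave 5720 regions. Leaving out each library gave 2298 to 2410 regions. At 3 kb the genes called in RNA were 135 higher and 151 lower between the populations in vehicle, 79 and 97 in TSA, and 6 and 2 for TSA in Tbr2-negative nuclei. Division of lengths by each library's median, chosen after seeing the data, gave 304 wider and 129 narrower regions for TSA in Tbr2-positive libraries, 62 and 63 in Tbr2-negative ones, 390 and 400 between the populations in vehicle and 289 and 291 in TSA. With covered length in place of the longest peak, also chosen afterwards, 1 region was wider for TSA in Tbr2-positive libraries, 20 were wider in Tbr2-negative ones, and 91 were wider and 1057 narrower between the populations under TSA. The width difference at Glcci1 turned to -208.5 bp. The cause was not tested.

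Leaving out each H3K9ac library gave 5 to 14 wider and 903 to 1075 narrower regions for TSA in Tbr2-positive libraries, 7 to 48 and 152 to 314 in Tbr2-negative ones, 63 to 96 and 553 to 984 between the populations under TSA, and 228 to 268 and 691 to 785 in vehicle. Held-out differences ranged from -422 to -346 bp, -393 to -113 bp, -506 to -245 bp and -255 to -200.3 bp in the same order.

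For TSA in Tbr2-positive nuclei DESeq2 called 122 and 71 genes at broad regions, no filter on low counts 60 and 23, and leaving out each library 0 to 6 and 0 to 7. In Tbr2-negative nuclei DESeq2 called 203 and 142, no filter 110 and 53, a fit of only the groups compared 43 and 25, and leaving out each library 0 to 86 and 0 to 35. Between the populations under TSA, leaving out each library gave 107 to 179 higher and 119 to 184 lower genes, 21 to 30 higher at wider regions, and 3 to 8 higher and 72 to 105 lower at narrower regions, where DESeq2 called 23 higher and the fit of only the groups compared 6. At narrower regions in vehicle 14 to 18 were higher and at wider ones 0 to 1 lower. With the replicate number as a block, TSA in Tbr2-negative nuclei called 1 gene in each direction, and the other counts of genes moved by less than 1.5 times. The numbers were not treated as a pairing. In deviations from the group mean, same-numbered libraries of the populations correlated at 0.0806 to 0.0994 over 3 pairs in vehicle and at 0.117 in TSA. With 2 TSA libraries per group the deviations mirror each other, so the 2 TSA pairs give only 1 value. Same-numbered libraries of vehicle and TSA within a population correlated at -0.0297 to -0.00751. Each vehicle library correlated best with its own number in the other population, a hint from the data and not from the design.

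Depth of ChIP and input differed between groups, so a shorter peak and a shallower list cannot be told apart. Peaks carry no replicate error of their own, and 2 TSA libraries per population limit what RNA tests can call.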

Other observations

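Regulators of chromatin and RNA at broad regions also differed between the populations. Of 4 histone deacetylase genes at broad regions, Hdac1, Hdac2 and Hdac3 were higher in Tbr2-positive vehicle RNA and 0 were lower. Hdac2 did not pass without Tbr2-positive library 2 or 3 or Tbr2-negative library 1 or 3 (edgeR adjusted p 0.064 to 0.128), and of the 4 genes only Hdac1 passed under TSA. Hdac1 stood at 74.9, 85.2 and 96.0 CPM in Tbr2-positive and 36.4, 42.8 and 35.6 CPM in Tbr2-negative vehicle (log2 fold change 1.16 ± 0.155, edgeR adjusted p = 0.000203), and under TSA its log2 fold change was 1.11 (edgeR adjusted p = 0.00359). Of 9 polycomb and trithorax genes, Eed, Ezh2 and Jarid2 were higher in vehicle. Jarid2 did not pass without library 1 or 3 of either population (edgeR adjusted p 0.0507 to 0.0813). Ezh2, the methyltransferase of polycomb complex PRC2, stood at 242, 219 and 227 CPM against 156, 126.5 and 131 CPM in vehicle. Of 13 RNA processing genes 7 were higher in Tbr2-positive vehicle and 0 lower, among them Hnrnpk, an RNA-binding protein, at 1352, 1925 and 1583 CPM against 828, 1148 and 976 CPM. Of 8 Notch pathway genes Dll1, Mfng and Notch1 were higher in vehicle. Of 21 projection neuron factors 6 were higher and 11 lower in vehicle, the latter including Cux2 and Bcl11b. In vehicle Fezf2, Neurod2, Pou3f2 and Pou3f3 did not pass when certain single libraries were left out (edgeR adjusted p 0.0508 to 0.177). Under TSA 5 projection neuron factors were higher and 5 lower, with only 2 libraries per group. Of all tested genes at broad regions, 17.6% were higher and 20.5% lower in vehicle, and 8.6% and 11.3% under TSA.

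Broad peaks were found in at least 1 library of every group at 776 regions, in Tbr2-negative libraries alone at 818 and in Tbr2-positive libraries alone at 119. A single group held them at 67 regions in Tbr2-positive vehicle, 105 in Tbr2-negative vehicle, 51 in Tbr2-negative TSA and 0 in Tbr2-positive TSA. The Tbr2-positive side had 3 vehicle libraries against 4. Its 4 TSA libraries, called against an input of 20.1 M tags, held 520 to 626 broad regions each. These counts are therefore not an even comparison of the populations. Pairs of Tbr2-negative vehicle libraries shared 68.9% to 78.4% of the broad regions of either one, and pairs of Tbr2-negative TSA libraries 29.3% to 87.0%.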
